A study of Canis lupus familiaris with 16 samples.

Results

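Integrins are the cell surface receptors through which cells hold on to the extracellular matrix. Each receptor is a pair of 1 alpha and 1 beta subunit, and the pair sets the ligand: alpha 1 and alpha 11 with beta 1 bind collagens, alpha 5 with beta 1 binds fibronectin, alpha 7 with beta 1 binds laminins, and alpha 8 with beta 1 binds nephronectin and other ligands with the RGD tripeptide. Alpha V pairs with several beta subunits, among them beta 1, beta 3, beta 5 and beta 8, to bind vitronectin, fibronectin and the latent form of TGF-beta. Fibroblasts, smooth muscle cells, pericytes and Schwann cells carry members of this set, and talin and kindlin join the beta subunits to the actin cytoskeleton. Expression of 10 genes for integrin subunits of mesenchymal cells (*ITGA1*, *ITGA5*, *ITGA7*, *ITGA8*, *ITGA11*, *ITGAV*, *ITGB1*, *ITGB3*, *ITGB5* and *ITGB8*) was examined in canine soft tissue sarcomas. The genes were taken by name, though with earlier results of these data known. All 10 were found among the 41818 genes counted and passed the filter that left 15408 genes for testing.

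RNA from formalin-fixed, paraffin-embedded (FFPE) sections of 16 tumors of dogs was sequenced, and each tumor was 1 sample. In the groups used here, the molecular identity in the labels, 4 tumors were fibrosarcomas (FS; ages 9 to 13 years), 6 were peripheral nerve sheath tumors (PNST; 8 to 13 years) and 6 were perivascular wall tumors (PWT; 2 to 14 years). No treatment was named for any group, and no normal tissue is compared here. Tumor S1-10 was a PWT and tumor S2-08 an FS by histology, and the authors moved them to PNST and PWT, respectively, by the expression of genes in these same samples, so the groups were not fully independent of the measurements. Tumors S1-04 and S1-05 have the same clinical labels and may come from 1 dog. The chi-square of their counts, divided by its degrees of freedom, was 11.4, where repeat runs of single tumors gave 1.23 to 1.83, and both were kept. Names of 9 tumors begin with S1 and those of 7 with S2. This prefix, a possible sequencing group, was unevenly spread, with 3 S1 tumors among the 4 FS, 5 among the 6 PNST and 1 among the 6 PWT.

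Between 507728 (S1-12, FS) and 4311876 (S1-03, PNST) counts per tumor fell on genes, of which 1192 to 7383 were on the 10 integrins. Values are given as CPM, a gene's count divided by the tumor's TMM-scaled total on genes, times 1000000, and are compared between tumors, not between genes, since CPM is not corrected for the length of the transcript. Markers of the named cell types did not all follow the labels. The defining Schwann cell gene *SOX10* was at 2.34 to 4.83 CPM in PNST, 1.43 to 7.53 in FS and 1.09 to 3.27 in PWT. Its median was highest in PNST (3.86, against 2.66 in FS and 2.54 in PWT), as was that of *S100B* (8.31, 1.00 and 4.32). The median of *GAP43* was lowest in PNST (14.6, 26.7 and 33.0), and those of *ERBB3* and *CDH19* were highest in FS. The sum of 8 Schwann cell markers was 45.2 to 251 CPM in PNST (median 63.0), highest in S1-09, mostly through *GAP43* and *S100B*. It was 42.4 to 107 CPM in FS (median 62.0) and 34.4 to 112 CPM in PWT (median 60.8). The sum of 8 pericyte and smooth muscle markers was 261 to 567 CPM in PWT, within the 255 to 1490 CPM of FS, and 3 of the 8 were called higher in FS against both other types (*ACTA2*, *CNN1* and *MCAM*). The sum of 6 fibroblast markers had a median of 3197 CPM in FS (1330 to 4689), 5674 in PNST and 5168 in PWT, though 1 of the 6, *LUM*, was called higher in FS. Keratinocyte markers (7) summed to a median of 563 CPM in FS, 40.3 in PNST and 29.8 in PWT, with a highest tumor of 1432, 1323 and 999 CPM, and edgeR called 0 of 7. Tumor S1-11 (FS) stood apart in 11 skeletal muscle markers, which summed to 11326 CPM there and to 32.3 to 1253 CPM in the other 15 tumors, and 3 of the 4 tested were called higher in FS (*MYH7*, *NEB* and *TTN*). In bulk samples such as these, fewer cells of a type and less RNA per cell cannot be told apart.

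The collagen receptor subunits *ITGA11* and *ITGA1* were the integrins that passed the test. A gene was called where edgeR's quasi-likelihood test gave an adjusted p-value (Benjamini-Hochberg over the 15408 genes) under 0.05 and its log2 fold change was above 1 or below -1. In FS against both other types, 1 of the 10 integrins was called, *ITGA11*, against 9.46% of all genes tested. In PWT against both other types, 0 of 10 were called, against 2.12% of all genes. In PNST against both other types, 0 of 10 were called by edgeR and 0 by DESeq2, where 0% and 0.799% of their genes were called, respectively. At an unadjusted p-value under 0.05, 4 of the 10 integrins differed in the comparison of FS, 3 in that of PNST and 2 in that of PWT. Of all genes tested, 25.4%, 15.7% and 22.4% did so, respectively. In the pairwise contrasts, 1 of 10 was called for FS against PNST (*ITGA1*), where 7.13% of all genes were called. For FS against PWT, 1 of 10 was called (*ITGA11*), where 11.2% of all genes were called. For PNST against PWT, 0 of 10 were called, where 0.169% of all genes were called (DESeq2 called 0 of 10 and 1.42% of its genes). There, 1 integrin and 19.6% of all genes had an unadjusted p-value under 0.05. The counts of integrins called, at most 1 of 10, were near the shares of all genes called.

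**Figure D1:**
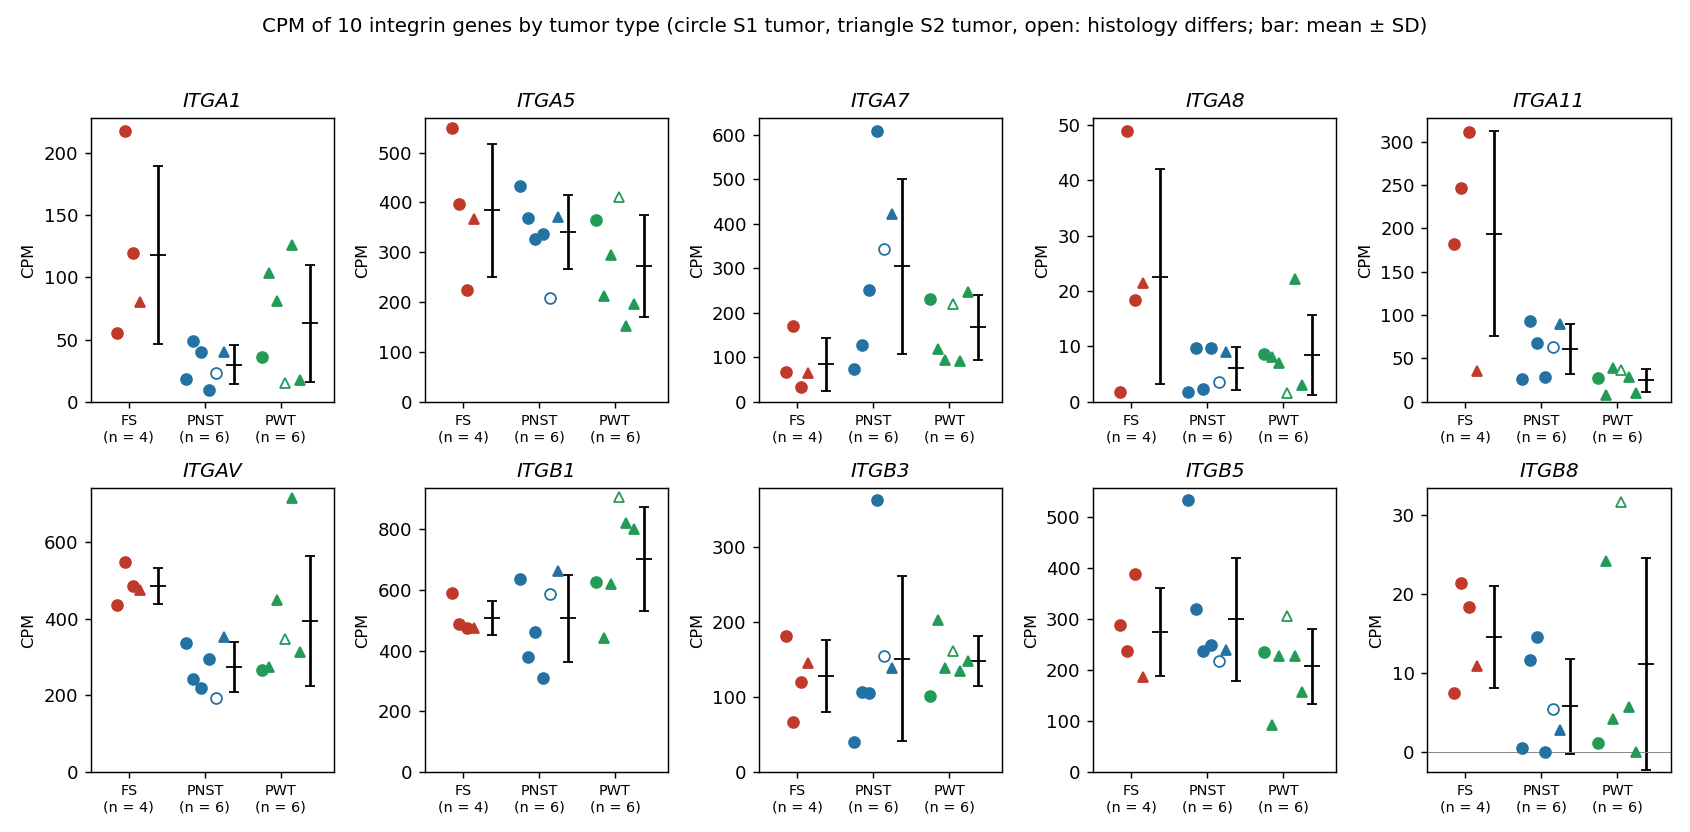
CPM of each of the 10 integrin genes (vertical axes from 0, linear) in 4 FS, 6 PNST and 6 PWT, with the mean ± SD of each type beside its tumors. Circles are S1 and triangles S2 tumors, and open symbols mark S1-10 and S2-08, whose histology differed. Of the 4 FS, 3 lie above all other tumors for *ITGA11*, while the types overlap widely for *ITGB1*, *ITGB3* and *ITGB5*.

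*ITGA11* encodes the alpha subunit of a receptor for fibrillar collagen that fibroblasts and myofibroblasts are known for. Its CPM in the FS was 181 in S1-02, 247 in S1-11, 311 in S1-12 and 35.2 in S2-06. In PNST it was 25.6 in S1-03, 92.7 in S1-04, 67.2 in S1-05, 28.4 in S1-09, 63.4 in S1-10 and 89.7 in S2-07. In PWT it was 27.3 in S1-07, 7.27 in S2-03, 39.0 in S2-04, 36.1 in S2-08, 28.6 in S2-09 and 10.5 in S2-11. The 3 FS of the S1 set were thus above all 12 other tumors, while S2-06 lay inside the range of both other types. All 6 PWT were at or below 39.0 CPM, and 4 of the 6 PNST were above that. The mean was 194 ± 118 CPM in FS (SD, n = 4), 61.2 ± 29.0 in PNST (n = 6) and 24.8 ± 13.1 in PWT (n = 6). *ITGA11* was higher in FS than in both other types by 2.16 on the log2 scale (SE 0.51, edgeR adjusted p = 0.0103), or 4.46-fold. The difference from PWT was 2.98 (SE 0.55, edgeR adjusted p = 0.00292). Neighbours in the order FS, PNST, PWT did not pass the test, with a log2 difference of 1.66 between FS and PNST (95% interval 0.56 to 2.76, edgeR adjusted p = 0.0609) and of 1.32 between PNST and PWT (0.27 to 2.37, edgeR adjusted p = 0.166). For PWT against both other types the log2 fold change was -2.20, and its edgeR adjusted p of 0.0508 was just above the threshold. *ITGA11* was called lower in PWT without S1-03, S1-09, S2-06 or S2-07, each left out alone (edgeR adjusted p between 0.0360 and 0.0488), with RLE size factors and with DESeq2 (DESeq2 adjusted p = 0.00294). In the model that included the prefix, its log2 fold change was -1.68 (edgeR adjusted p = 0.432).

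Within the S1 tumors, the 3 FS (181 to 311 CPM of *ITGA11*) did not overlap the 5 PNST (25.6 to 92.7), and a fit of these 8 tumors alone gave a log2 fold change of 2.16 (edgeR adjusted p = 0.0327). *ITGA11* was also called for FS against PNST without S2-06 (2.02, edgeR adjusted p = 0.0184), without S2-03 (1.66, 0.0437) and by DESeq2 (1.69, DESeq2 adjusted p = 0.0267). Within the S2 tumors there was 1 FS, which lay below the 1 PNST and inside the range of the 5 PWT (7.27 to 39.0). A model that included the prefix gave a log2 fold change of 1.80 for FS against both other types (edgeR adjusted p = 0.0429). *ITGA11* was called in 24 of 25 alternative fits of FS against both other types, including each fit that left out 1 tumor. The exception was the fit with the tumors grouped by histology, with S2-08 (36.1 CPM) among the FS, where the log2 fold change was 1.88 (edgeR adjusted p = 0.0847). Without S1-11, the tumor with the highest sum of skeletal muscle markers, it was 1.99 and remained past both thresholds. Beside the higher *ITGA11* in FS, *ACTA2*, *CNN1*, *MCAM* and *LUM* were also called higher there, while the summed fibroblast markers were at 4689 CPM in S1-02, 4427 in S1-11, 1967 in S1-12 and 1330 in S2-06. The part of these markers in the level of *ITGA11* was not tested.

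*ITGA1*, the alpha subunit of a collagen receptor of smooth muscle cells, pericytes and fibroblasts, had another order of the types. Its CPM in the FS was 55.2 in S1-02, 218 in S1-11, 120 in S1-12 and 80.3 in S2-06. In PNST it was 18.2 in S1-03, 48.7 in S1-04, 40.3 in S1-05, 9.05 in S1-09, 23.2 in S1-10 and 39.8 in S2-07. In PWT it was 35.9 in S1-07, 104 in S2-03, 80.8 in S2-04, 15.3 in S2-08, 126 in S2-09 and 17.2 in S2-11. All 4 FS were above all 6 PNST, while the PWT spread over the range of both. The mean was 118 ± 71.4 CPM in FS, 63.2 ± 47.0 in PWT and 29.9 ± 15.3 in PNST. The log2 fold change of FS against PNST was 1.99 (SE 0.57, edgeR adjusted p = 0.0419). FS and PWT differed by 0.91 (95% interval -0.29 to 2.10, edgeR adjusted p = 0.308) and PNST and PWT by -1.08 (-2.19 to 0.02, edgeR adjusted p = 0.263), so neither pair of neighbours was told apart. Against both other types the edgeR adjusted p was 0.107 in FS, 0.215 in PNST and 0.979 in PWT. Without S2-09, *ITGA1* was called higher in FS (log2 fold change 1.60, edgeR adjusted p = 0.0461).

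The call for *ITGA1* was near its threshold and was kept in 14 of 26 alternative fits of FS against PNST. Leaving out S1-03, S1-05, S1-09, S1-10, S1-11, S1-12, S2-04 or S2-07, each alone, ended it (edgeR adjusted p between 0.0519 and 0.153), with log2 fold changes of *ITGA1* between 1.49 (without S1-11) and 2.10 (without S1-05). It was also not called with histology as the grouping (1.65, edgeR adjusted p = 0.311), without both tumors whose diagnoses differ (1.93, 0.0669), with S1-04 and S1-05 summed (2.12) or in the S1 tumors alone (2.25, 0.0574). S1-11 held the highest *ITGA1* of all 16 tumors and also the highest sums of skeletal muscle markers and of pericyte and smooth muscle markers (1490 CPM). The part of these markers in the level of *ITGA1* was not tested. The gene model of *ITGA1* overlaps those of *PELO* and *LOC119871537* in the annotation of the UU_Cfam_GSD_1.0 assembly. Where strand was not counted, reads of a shared stretch could not be told apart. The same holds for *ITGA7* with *METTL7B*, *ITGB1* with *LOC100683136*, *ITGA8* with *LOC119870137* and *ITGB8* with *LOC102155599*.

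**Figure D2:**
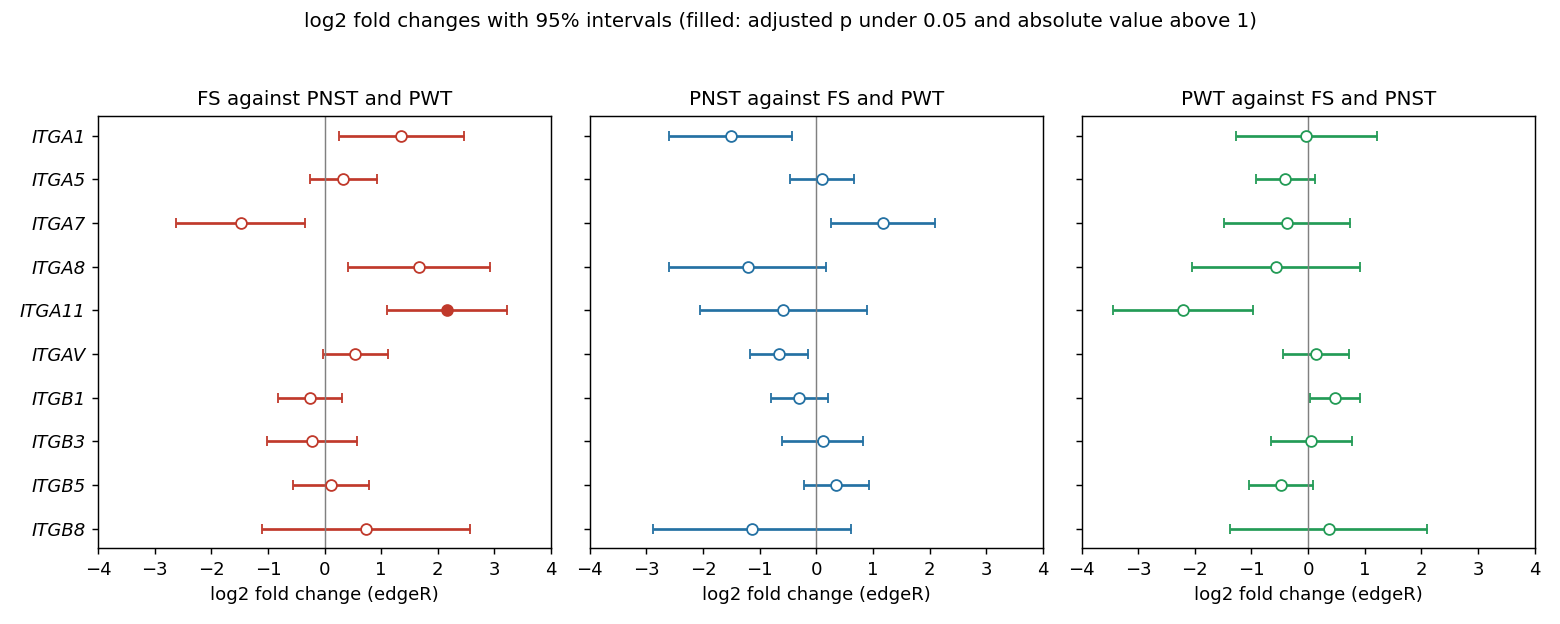
Log2 fold change (horizontal axis) of each integrin gene in FS, PNST and PWT, each against both other types pooled, with its 95% interval. Filled points passed the test, which only *ITGA11* in FS did (2.16), and the intervals of *ITGB3* and *ITGB5* span 0 in each panel.

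*ITGA7* encodes the laminin receptor subunit of muscle cells, which Schwann cells also carry. Its CPM in the FS was 66.3 in S1-02, 170 in S1-11, 33.1 in S1-12 and 65.6 in S2-06. In PNST it was 73.3 in S1-03, 129 in S1-04, 251 in S1-05, 608 in S1-09, 344 in S1-10 and 421 in S2-07. In PWT it was 232 in S1-07, 119 in S2-03, 94.8 in S2-04, 220 in S2-08, 92.4 in S2-09 and 248 in S2-11. Of the 4 FS, 3 were below all 12 other tumors, and 4 of the 6 PNST were above all 10 others. The mean was 304 ± 197 CPM in PNST, 168 ± 72.9 in PWT and 83.8 ± 59.5 in FS. No comparison passed the test: the log2 fold change of *ITGA7* was -1.48 in FS against both other types (95% interval -2.63 to -0.34, edgeR adjusted p = 0.0907), 1.18 in PNST (0.25 to 2.10, edgeR adjusted p = 0.237) and -1.85 in FS against PNST (-3.02 to -0.67, edgeR adjusted p = 0.0511). The neighbours PNST and PWT differed by 0.86 (95% interval -0.13 to 1.84) and FS and PWT by -0.99 (-2.12 to 0.15).

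S1-11, the FS with the highest *ITGA7*, also had the highest sum of skeletal muscle markers of all tumors (11326 CPM). Next in that sum were the PWT S1-07 (1253 CPM, with *ITGA7* at 232) and S2-09 (695 CPM, with *ITGA7* at 92.4, the lowest PWT). Without S1-11, *ITGA7* was called lower in FS against both other types (-2.09, edgeR adjusted p = 0.0495) and against PNST (-2.46, edgeR adjusted p = 0.0266). It was also called against PNST without S1-03 (-2.02, edgeR adjusted p = 0.0291), without S1-04 (edgeR adjusted p = 0.0378), with upper quartile factors (-1.89, 0.0456) and with no filter (-1.91, 0.0310). DESeq2 called it in both comparisons (-1.45, DESeq2 adjusted p = 0.0396, and -1.81, DESeq2 adjusted p = 0.0116). S1-09 had both the highest *ITGA7* of all tumors and the highest sum of Schwann cell markers (251 CPM, against at most 112 elsewhere). Most of that sum came from *GAP43* (159 CPM) and *S100B* (76.3 CPM), while 2 of the 8 markers were at 0 there. *SOX10* was at most 4.83 CPM in any PNST. Without S1-09, the log2 fold change of *ITGA7* in PNST against both other types was 0.86 (edgeR adjusted p = 0.468). The part of the Schwann cell and muscle markers in these levels was not tested.

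*ITGA8*, the subunit of the nephronectin receptor of smooth muscle and mesangial cells, was sparse, with at least 10 counts in 10 of the 16 tumors. In the FS it was at 1.79 CPM in S1-02 (5 counts), 48.8 in S1-11, 18.4 in S1-12 and 21.4 in S2-06. It was between 1.71 and 9.74 CPM in PNST (median 6.30) and between 1.64 and 22.1 CPM in PWT (median 7.52). The levels of 3 FS were above all 6 PNST, while S1-02 was among the lowest of all. The log2 fold change of FS against both other types was 1.67 (95% interval 0.41 to 2.92, edgeR adjusted p = 0.0841) and that of FS against PNST was 1.90 (0.40 to 3.39, edgeR adjusted p = 0.114). *ITGA8* was called in the first of these without S1-02 (2.08, edgeR adjusted p = 0.0218) or without S2-09 (1.94, edgeR adjusted p = 0.0377), and in the second without S1-02 (2.31, edgeR adjusted p = 0.0340).

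*ITGA5*, the subunit of the classical fibronectin receptor, was spread evenly over the types. It was at 225 to 549 CPM in FS (median 382), 209 to 432 in PNST (median 353) and 152 to 411 in PWT (median 253). The mean fell in that order, 384 ± 133, 341 ± 74.2 and 272 ± 102 CPM, with every step inside the spread of the tumors. The log2 difference was 0.18 between FS and PNST (95% interval -0.47 to 0.83) and 0.33 between PNST and PWT (-0.26 to 0.91). For FS against both other types it was 0.33 (-0.26 to 0.92).

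*ITGAV*, the subunit shared by the receptors of vitronectin and latent TGF-beta, was tightly grouped in FS. Its CPM there was 435 in S1-02, 548 in S1-11, 486 in S1-12 and 476 in S2-06. In PNST it was 337 in S1-03, 242 in S1-04, 218 in S1-05, 296 in S1-09, 193 in S1-10 and 353 in S2-07. In PWT it was 265 in S1-07, 274 in S2-03, 449 in S2-04, 348 in S2-08, 715 in S2-09 and 314 in S2-11. All 4 FS were above all 6 PNST, and 2 PWT reached into or above the range of the FS. The mean was 486 ± 46.8 CPM in FS, 394 ± 170 in PWT and 273 ± 65.4 in PNST. FS and PNST differed by 0.83 on the log2 scale (95% interval 0.24 to 1.43, edgeR adjusted p = 0.0807), which passed neither threshold. PNST against both other types gave -0.66 (95% interval -1.17 to -0.14, edgeR adjusted p = 0.236), and FS and PWT, neighbours in the order, differed by 0.30 (-0.30 to 0.90).

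Of the beta subunits, none was called in any of the 6 comparisons. *ITGB1*, the common partner of 5 alpha subunits of the set (*ITGA1*, *ITGA5*, *ITGA7*, *ITGA8* and *ITGA11*), varied least. It was at 473 to 591 CPM in FS, 310 to 663 in PNST and 442 to 905 in PWT, with means of 506 ± 56.4, 506 ± 145 and 703 ± 171. The 3 PWT S2-08, S2-09 and S2-11 were above all other tumors. PWT against both other types gave 0.47 on the log2 scale (95% interval 0.03 to 0.91, edgeR adjusted p = 0.193), and FS and PNST differed by 0.00 (-0.56 to 0.56).

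*ITGB5* and *ITGB3*, which pair with alpha V, overlapped over all types. *ITGB5* was at 187 to 389 CPM in FS, 218 to 535 in PNST and 91.3 to 306 in PWT. Its log2 fold change was 0.36 in PNST against both other types (95% interval -0.22 to 0.93) and -0.48 in PWT (-1.05 to 0.08). *ITGB3*, also the beta subunit of the fibrinogen receptor of platelets, was at 66.9 to 182 CPM in FS, 39.2 to 363 in PNST and 102 to 204 in PWT. Both the lowest and the highest of the 16 tumors were PNST, S1-03 (39.2) and S1-09 (363). Against both other types its log2 fold change was between -0.22 (FS) and 0.11 (PNST). The summed level of 4 platelet and megakaryocyte markers was 3.36 to 24.5 CPM over all tumors, with 14.8 CPM in S1-09 and 7.96 in S1-03.

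*ITGB8*, the beta subunit of a receptor that activates latent TGF-beta, was the sparsest member. It was counted 0 times in S1-09 (PNST) and S2-11 (PWT), where 3 counts would have been 0.905 and 2.24 CPM, and reached 31.7 CPM in S2-08 (PWT). The 4 FS were at 7.53, 21.4, 18.4 and 10.9 CPM, the 6 PNST at 0 to 14.6 (median 4.12) and the 6 PWT at 0 to 31.7 (median 4.95). Its log2 fold change in FS against both other types was 0.73 with a 95% interval of -1.11 to 2.57, which is too wide to place FS above or below.

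Since the alpha subunits *ITGA1*, *ITGA5*, *ITGA7*, *ITGA8* and *ITGA11* pair with beta 1 alone, their counts were also set against those of *ITGB1* in the same tumor. The ratio is free of the scaling between libraries, though not of the length of the transcripts, so it is compared between tumors only. Per 100 *ITGB1* counts, the FS had 30.7 (S1-02), 50.7 (S1-11), 65.5 (S1-12) and 7.43 (S2-06) counts of *ITGA11*. The PNST had 4.02 to 24.4 (median 12.2) and the PWT 1.31 to 6.31 (median 3.74). On this scale all 4 FS, S2-06 included, were above all 6 PWT. In CPM of *ITGA11*, S2-06 (35.2) was below the PWT S2-04 (39.0) and S2-08 (36.1). The ratio is lower where *ITGB1* is higher, and *ITGB1* was at 473 CPM in S2-06, 619 in S2-04 and 905 in S2-08. For *ITGA1* the ratio was 9.35 to 44.7 in FS (median 21.1), 2.86 to 12.8 in PNST (median 4.97) and 1.69 to 23.5 in PWT (median 9.40), and S1-02 (FS) now fell below the highest PNST. For *ITGA7* it was 6.98 to 34.9 in FS, 11.5 to 196 in PNST and 11.3 to 37.0 in PWT. S1-09 alone, with 196 counts of *ITGA7* per 100 of *ITGB1*, was far above the 63.5 of the next tumor. That tumor, S1-09, also had the lowest *ITGB1* of all 16 tumors (310 CPM). For *ITGA5* the ratio was 47.3 to 93.0 in FS, 35.6 to 109 in PNST and 18.5 to 58.3 in PWT.

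**Figure D3:**
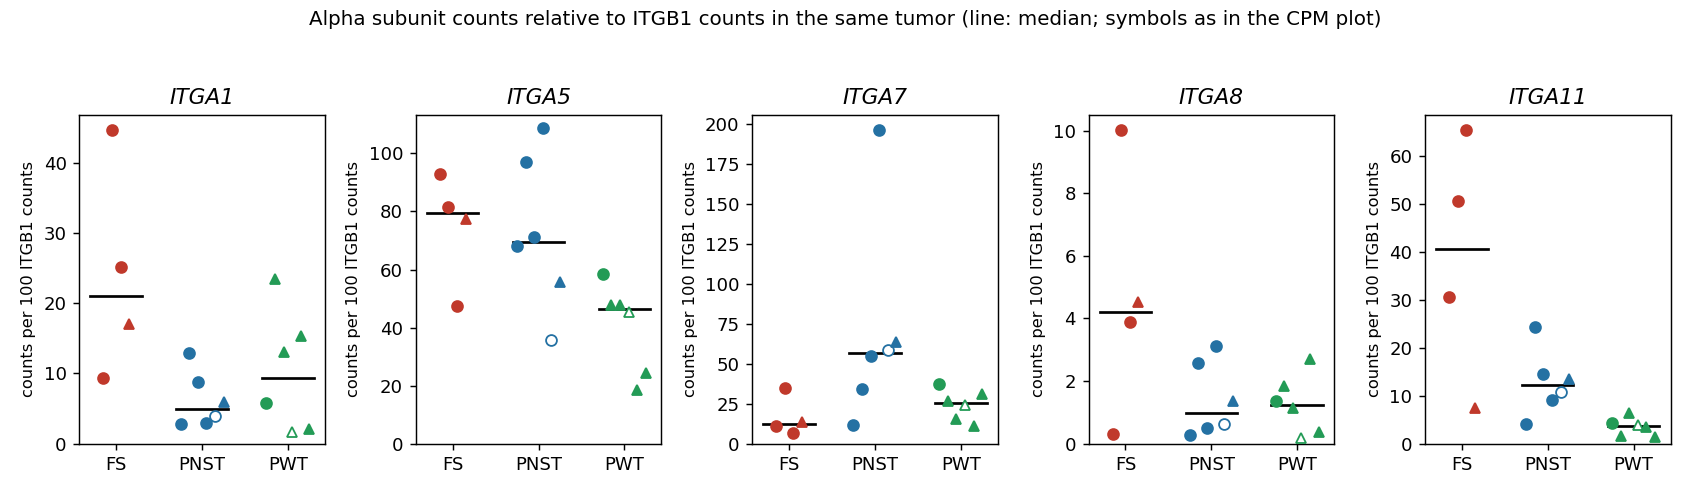
Counts of 5 alpha subunit genes per 100 counts of *ITGB1* in the same tumor (vertical axes from 0), by type, with the median as a line and symbols as in the plot of CPM. For *ITGA11*, the lowest FS (7.43) is narrowly above the highest PWT (6.31, from 28 counts of *ITGA11*), and for *ITGA7* 1 PNST, S1-09, is at 196.

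The members varied to different degrees. Over the 16 tumors, the SD of log2 CPM was 1.64 for *ITGB8*, 1.46 for *ITGA11*, 1.27 for *ITGA8*, 1.25 for *ITGA1* and 1.12 for *ITGA7*, against a median of 0.67 over all genes tested. It was 0.42 for *ITGB1*, 0.50 for *ITGA5*, 0.51 for *ITGAV*, 0.56 for *ITGB5* and 0.69 for *ITGB3*. Between runs of the same S1 tumor, the chi-square per degree of freedom, which is about 1 for counting error alone, was 1.86 for *ITGB1* and between 0.70 (*ITGB3*) and 1.16 (*ITGAV*) for the other members, over 9 tumors (8 for *ITGB8*). The median CV between runs was 18.1% for *ITGA11* and 7.18% for *ITGB1*, against CVs between tumors of 1 type of 47.3% to 61.0% and 11.1% to 28.6%. Between runs it was 42.5% for *ITGB8* and 31.1% for *ITGA8*, the sparsest members, so counting error adds to their SD over the tumors. Over the 16 tumors, whose depth and prefix are common to all members, the highest Spearman correlations between members were 0.64 for *ITGA5* with *ITGB5* and 0.61 for *ITGA1* with *ITGA8*, and the lowest was -0.60 for *ITGA1* with *ITGA7*. Among all genes tested, the genes most like *ITGA11* in rank over the tumors were *GRHPR* (rho 0.91), *USHBP1* (0.82) and *ARSB* (0.82). Those most like *ITGA1* were *RHOBTB3* (0.91), *EMB* (0.91) and *KALRN* (0.91), those most like *ITGB5* were *MMP14* (0.89), *DNAJA4* (0.87) and *HPS1* (0.86), and those most like *ITGA7* were *WBP1* (0.90), *SCAMP5* (0.90) and *ABLIM1* (0.88).

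Of the 16 other integrin genes, 14 were tested. In PNST and in PWT, each against both other types, 0 of them were called by edgeR and 0 by DESeq2. Of all genes, edgeR called 0% and 2.12% there, and DESeq2 called 0.799% and 2.4% of its genes. At an unadjusted p-value under 0.05 were 2 and 1 of them, beside 15.7% and 22.4% of all genes. In FS, where 9.46% of all genes were called, 1 was called, *ITGAE*, the alpha subunit of the E-cadherin receptor of lymphocytes within epithelia. It was at 12.5 to 59.2 CPM in FS, 58.8 to 519 in PNST and 14.9 to 171 in PWT, so that FS lay at the low end of both. The log2 fold change of *ITGAE* was -2.33 in FS against both other types (SE 0.67, edgeR adjusted p = 0.0326) and -2.79 against PNST (SE 0.66, edgeR adjusted p = 0.0163). The first call was lost without S1-02, S1-12 or S2-06, each left out alone (edgeR adjusted p between 0.0542 and 0.0896), without S1-10 and S2-08 (0.0513) and with histology as the grouping (0.159). The second was kept in all 16 fits that left out 1 tumor and lost with histology as the grouping (edgeR adjusted p = 0.18) and in the S1 tumors alone (0.0628). The sum of 5 lymphocyte markers did not follow it, with 7.37 to 107 CPM in FS and 7.84 to 54.7 in PNST. The gene model of *ITGAE* overlaps those of *HASPIN* and *LOC119873532* in the UU_Cfam_GSD_1.0 annotation. Reads of a shared stretch could not be told apart where strand was not counted. The median log2 fold change of the 14 was 0.42 in FS against both other types, beside 0.44 for the 10 members and 0.00 for all genes tested.

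**Figure D4:**
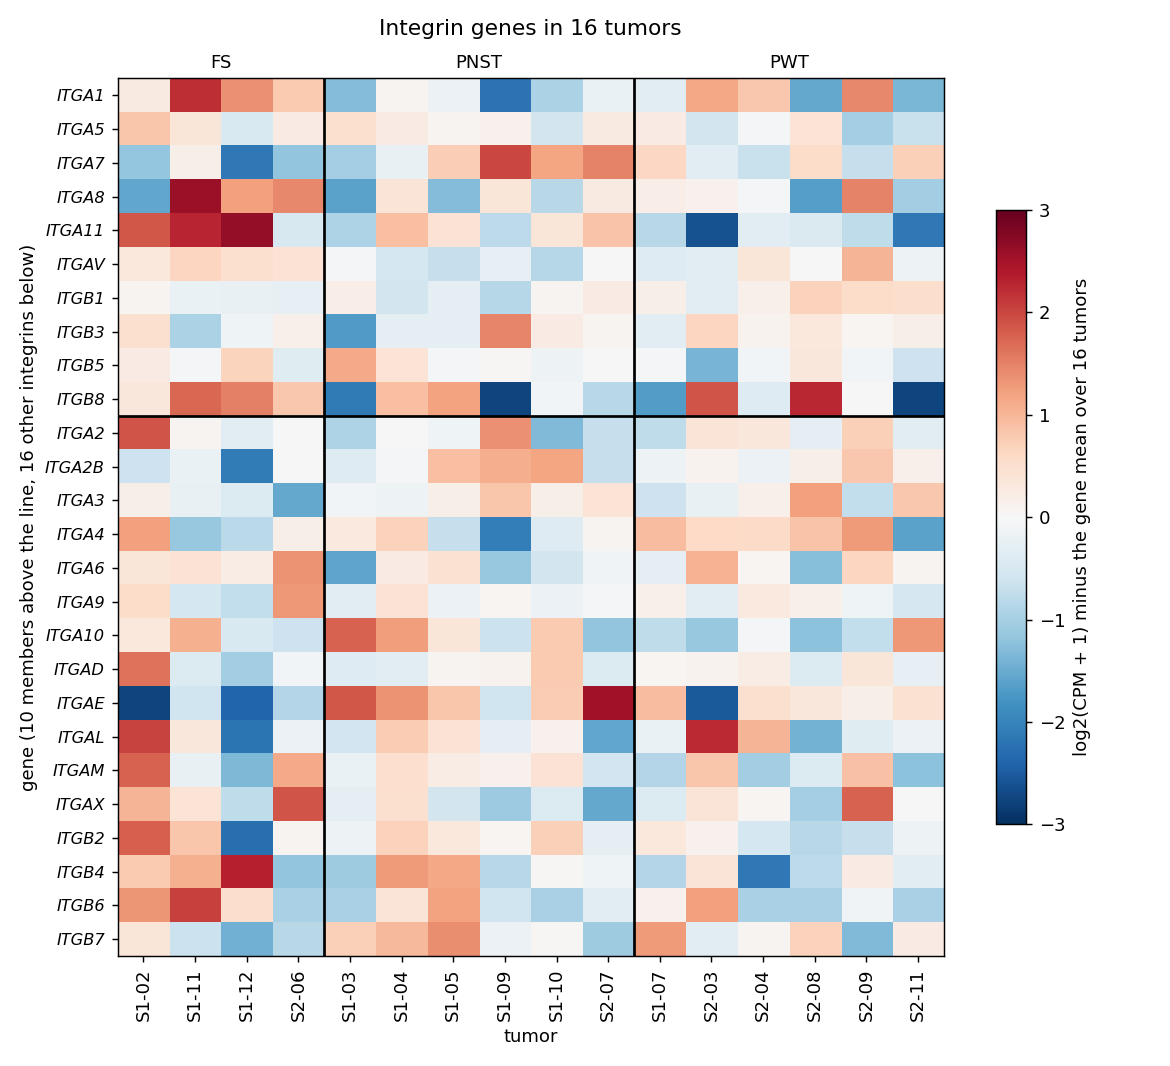
Log2(CPM + 1) of the 10 integrins of mesenchymal cells and of the 16 other integrin genes (rows) in 16 tumors (columns, grouped by type), each gene centred on its mean. *ITGA11* is high in 3 of 4 FS columns and lowest in S2-03, and *ITGAE* is low in the FS and highest in S2-07.

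Of 27 genes for ligands of these receptors, 24 were tested. In FS against both other types, 8 were called higher, 0 lower and 16 did not pass, where 9.46% of all genes were called. The median log2 fold change of the 24 was 0.56, beside 0.00 for all genes tested. The 8 were the fibrillar collagens *COL1A1*, *COL3A1* and *COL5A1*, which are the class of ligand of alpha 11, and *EDIL3*, *EMILIN1*, *LTBP1*, *MFGE8* and *TNC*. *EDIL3*, a secreted ligand of alpha V integrins, was at 42.8 to 689 CPM in FS, at most 68.5 in PNST and at most 31.1 in PWT (log2 fold change 3.33 in FS, SE 0.69, edgeR adjusted p = 0.0046). *EMILIN1* differed by 1.38 (SE 0.35, edgeR adjusted p = 0.0173) and *COL5A1* by 1.43 (SE 0.40, edgeR adjusted p = 0.0263). S1-11 decided most of this count: without it, 1 ligand, *EDIL3*, was higher in FS, while 5.98% of all genes were called. In that tumor *COL1A1* was at 41308 CPM, against at most 12894 CPM in any PNST. With the prefix as a term 5 were higher (*COL1A1*, *COL5A1*, *EDIL3*, *EMILIN1* and *TNC*), where 9.46% of all genes were called. With histology as the grouping 0 were, where 1.33% of all genes were called. Of the 16 fits that left out 1 tumor, 8 kept the call of *COL3A1*, 9 that of *TNC*, and 14 to 16 that of each of the other 6.

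In PWT against both other types, 3 ligands were called lower, *COL1A1*, *COL6A1* and *EDIL3*, and 21 did not pass, where 2.12% of all genes were called (the median log2 fold change of the 24 was -0.85, beside -0.08 for all genes tested). Pairwise, 10 ligands were higher in FS than in PWT, where 11.2% of all genes were called, and 1 was higher (*EDIL3*) and 1 lower (*TGFB1*) than in PNST, where 7.13% were. The first of these counts was 2 without S1-11 (*COL1A1* and *EDIL3*), where 6.97% of all genes were called. In the model that included the prefix it was also 2 (*COL6A1* and *EDIL3*), where 5.81% of all genes were called. Leaving out S1-02, S1-05, S1-09, S1-10 or S1-11, each alone, ended the call of *EDIL3* against PNST (edgeR adjusted p between 0.0511 and 0.146). Without S1-11, *TGFB1* was not called there either, and *FBN1*, the gene of fibrillin, was called lower. *COL6A1* was at 298 to 1246 CPM in PWT, 649 to 2214 in PNST and 1553 to 3064 in FS, and fell by 1.42 on the log2 scale (SE 0.34, edgeR adjusted p = 0.0355). *COL1A1* fell by 2.03 (SE 0.52, edgeR adjusted p = 0.0458) and *EDIL3* by 3.55 (SE 0.94, edgeR adjusted p = 0.0499). All 3 calls were near the threshold: of the 16 fits that left out 1 tumor, 9 kept that of *COL6A1*, 5 that of *COL1A1* and 3 that of *EDIL3*. In the model that included the prefix, or with histology as the grouping, 0 of the 24 ligands and 0 of all genes were called for PWT. Without S1-09, 0 ligands and 1.4% of all genes were. In PNST against both other types, 0 of 24 ligands were called by edgeR and 0 by DESeq2, where 0% and 0.799% of their genes were called. There, 3 ligands and 15.7% of all genes tested had an unadjusted p-value under 0.05. The smallest p-value there was that of *TGFB1*, the growth factor that alpha V integrins release, at 36.4 to 57.9 CPM in PNST, 14.8 to 29.5 in FS and 12.7 to 36.0 in PWT (log2 fold change 0.94, edgeR adjusted p = 0.132). Against FS alone, *TGFB1* was called higher in PNST, with a log2 fold change of FS against PNST of -1.18 (SE 0.29, edgeR adjusted p = 0.0179).

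Of 34 genes for the proteins that join integrins to the cytoskeleton, 33 were tested, and 3 were higher and 1 lower in FS against both other types, a count near the 9.46% of all genes called there. *LIMS1*, the PINCH adaptor of integrin-linked kinase, was at 101 to 137 CPM in FS, 24.4 to 48.2 in PNST and 21.3 to 66.6 in PWT, with no overlap. Its log2 fold change in FS was 1.59 (SE 0.25, edgeR adjusted p = 0.000807). *ACTN1*, which crosslinks actin at adhesions, was at 67.9 to 324 CPM in FS and at most 65.4 CPM in the other 12 tumors (log2 fold change 2.55, SE 0.43, edgeR adjusted p = 0.00118). *PXN*, the adhesion scaffold paxillin, was at 47.3 to 81.2 CPM in FS and at 102 to 204 CPM in the others, again without overlap (log2 fold change -1.29, SE 0.23, edgeR adjusted p = 0.00191). The third gene that was higher was *KANK1*. *LIMS1*, *ACTN1* and *PXN* were also called without S1-11 and in the model that included the prefix, and with histology as the grouping only *ACTN1* was. In PWT, where 2.12% of all genes were called, 1 of the 33 was called. It was *BCAR1*, an adaptor of integrin signalling, which fell by 1.09 on the log2 scale (SE 0.28, edgeR adjusted p = 0.0458). That call was kept in 4 of the 16 fits that left out 1 tumor, and it was lost in the model that included the prefix (edgeR adjusted p = 0.379) and with histology as the grouping (edgeR adjusted p = 0.199). In PNST 0 of 33 were called by edgeR, and 5 had an unadjusted p-value under 0.05, as did 15.7% of all genes tested. The smallest p-value was that of *LIMS1* (log2 fold change -1.18, edgeR adjusted p = 0.177). It was the only gene of the list that DESeq2 called, where DESeq2 called 0.799% of its genes.

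**Figure D5:**
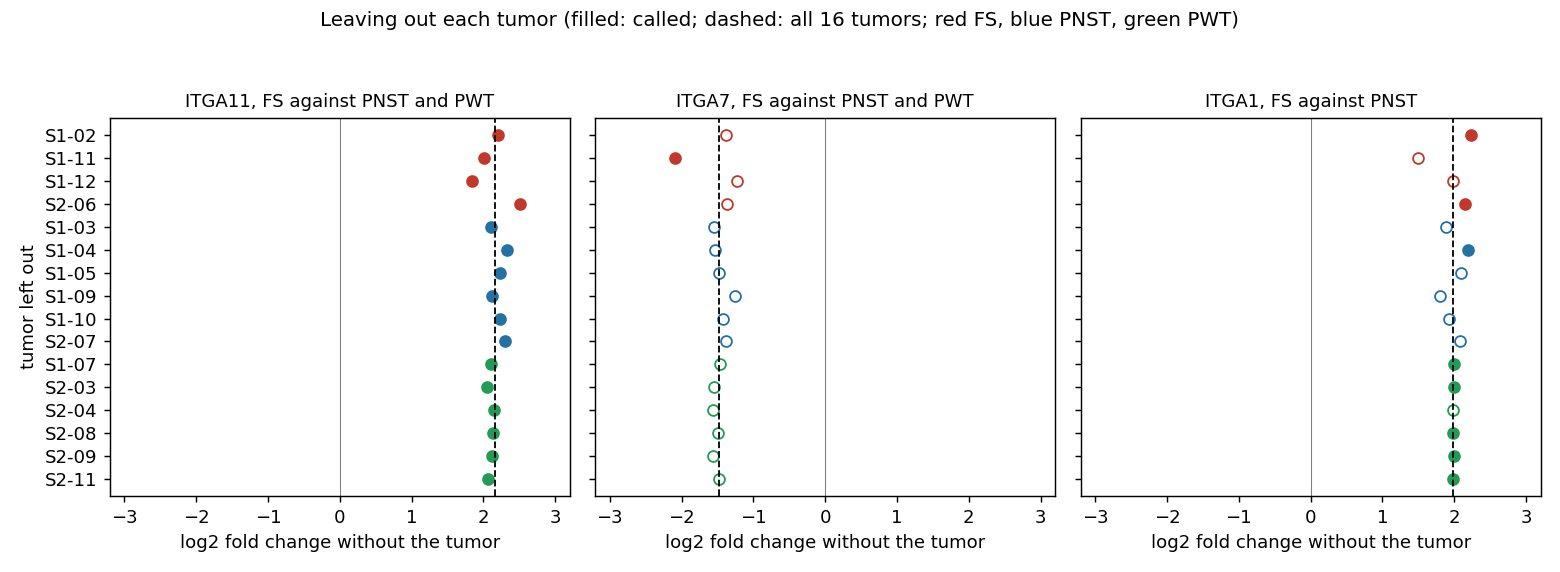
Log2 fold change (horizontal axis) of *ITGA11* and *ITGA7* in FS against both other types and of *ITGA1* in FS against PNST, with each tumor in turn left out (vertical axis), where filled points passed the test and the dashed line is the fit of all 16 tumors. *ITGA11* stayed between 1.84 and 2.52 and passed in all 16 fits, *ITGA7* passed only without S1-11, and *ITGA1* passed in 8 of the 16.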

How the data were processed

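RNA from FFPE sections of 16 canine tumors was sequenced on an Ion Proton instrument after removal of ribosomal RNA. The authors aligned reads to the ROS_Cfam_1.0 genome with STAR and deposited raw counts per gene from htseq-count, with 1 column per run (34 in all). Versions, the annotation and the use of strand were not given in the sources used here. Rows that name no gene (unassigned, ambiguous and multiply aligned reads) were left out, which left 22.9% to 30.6% of all reads listed per tumor. Runs of the same tumor were summed. Counts were tested in R 4.3.3 with edgeR 4.0.16 (TMM, quasi-likelihood) over genes that reached 10 counts in 4 or more tumors, each type against both others pooled, and pairwise in a model of 3 types. SEs were the log2 fold change divided by the square root of F, with 95% intervals from them. Genes were called where the adjusted p-value was under 0.05 and the log2 fold change above 1 or below -1. The procedure was tested on simulated data, in which 200 genes were changed. DESeq2 1.42.0, other size factors, no filter, no fold threshold, the prefix as a term, histology as the grouping, and fits without single or paired tumors were the alternatives. Their use on the ligand, adhesion and other integrin lists was chosen after seeing the data.

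The 10 members and the lists of other integrins, ligands, adhesion proteins and cell type markers were chosen with earlier results of these data known. All members were to be named, as were other integrins called against both other types, up to 6 called genes of the ligand and adhesion lists per comparison by the smallest p-value, and the 3 genes most like a member. Other genes were named after their values were seen. Each tumor was taken as 1 replicate, and whether any dog gave more than 1 is not given in the labels. Depth (507728 to 4311876 counts on genes per tumor) sets the precision, and floors cover counting error only.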

Additional observations from a re-analysis of the deposited data

Results flagged for a closer look

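Among 30 groups of tumors (10 integrins in 3 types), 4 held a tumor whose distance to its nearest neighbour was large against the range of its group by Dixon's criterion, where chance gives about 1 in 20. *ITGA8* in PWT was 22.1 CPM in S2-09, and the next PWT was at 8.55. *ITGB1* in FS was 590.5 CPM in S1-02, above the other FS, the next of which was at 487, though S1-02 was within the range of the PNST and PWT. *ITGB3* in PNST was 363 CPM in S1-09, and the next PNST was at 155. S1-09 also had the highest sum of Schwann cell markers, mostly through *GAP43* and *S100B*. *ITGB5* in PNST was 535.0 CPM in S1-03, the most deeply sequenced tumor, and the next PNST was at 321. None of these 4 integrins was called in the comparisons of the type that held the tumor.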

How the results depend on the processing

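No paired analysis was possible because the labels give the tumors no replicate numbers. Of 1510 alternative values of the members' log2 fold changes, 1430 kept their direction and their side of the thresholds, 14 lost a call, 22 gained one and 44 changed sign. All 220 alternative mean CPM values of the members stayed within 1 SD. For the means that left out 1 tumor this was fixed in advance, since 1 tumor cannot move the mean of its group that far. Only those with other scaling could have moved. The causes of the changes below were not tested. The 6 comparisons share tumors, groups of 4 to 6 limit every count of calls, and *ITGA8* and *ITGB8* were also limited by depth, with fewer than 10 counts in 6 and 7 tumors.

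With histology as the grouping, the genes called were 205 for FS, 0 for PWT, 0 for FS against PNST, 5 for FS against PWT and 0 for PNST against PWT, with 0 integrins for FS, for FS against PNST and for FS against PWT. DESeq2 called 291 genes for PNST, 875 for PWT, 1774 for FS against PNST and 517 for PNST against PWT. It called 2 integrins for FS (*ITGA7* and *ITGA11*), where 5.74% of its genes were called. For PWT it called 1 (*ITGA11*), where 2.4% were, and for FS against PNST 3 (*ITGA1*, *ITGA7* and *ITGA11*), where 4.87% were. With the prefix as a term, 0 genes were called for PWT, 895 for FS against PWT and 0 for PNST against PWT. Without S1-10 and S2-08, they were 140 for PWT, 635 (0 integrins) for FS against PNST and 0 for PNST against PWT. With no filter, 2 genes were called for PNST and 128 for PWT, and 2 integrins for FS against PNST. Upper quartile factors gave 12 genes for PNST against PWT and 2 integrins for FS against PNST, and RLE size factors gave 1 integrin for PWT. With S1-04 and S1-05 summed, 0 integrins were called for FS against PNST and 0 genes for PNST against PWT, and the S1 tumors alone gave 535 genes for FS against PNST.

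Leaving out 1 tumor gave 911 (without S1-11) to 1583 genes for FS with 1 to 3 integrins, 0 to 3 for PNST, 11 (without S2-11) to 487 for PWT with 0 to 1 integrins, 656 (without S1-10) to 1201 for FS against PNST with 0 to 2 integrins, 1062 (without S1-11) to 1898 for FS against PWT, and 0 to 226 (without S2-07) for PNST against PWT.

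No value that changed sign was called on either side. With the prefix as a term these were *ITGB5* in FS (-0.029), *ITGA5* in PNST (-0.0074), *ITGAV* (-0.13) and *ITGB3* (-0.081) in PWT and *ITGB1* in FS against PNST (-0.0014). With histology as the grouping they were *ITGB1* in FS (0.024) and, in PWT, *ITGA1* (0.010), *ITGAV* (-0.021) and *ITGB8* (-0.71). Without S1-10 and S2-08 they were *ITGA1* (0.069) and *ITGB8* (-0.33) in PWT. With no filter they were *ITGB3* in PWT (-0.024) and *ITGB1* in FS against PNST (-0.089), and the latter was also -0.049 with upper quartile factors and -0.050 with S1-04 and S1-05 summed.

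With 1 tumor left out, the values that changed sign spanned, in FS, -0.094 to 0.27 for *ITGB5*, and in PNST, -0.36 to 0.28 for *ITGB3*. In PWT they spanned -0.36 to 0.42 for *ITGA1*, -1.13 to 0.0088 for *ITGA8*, -0.12 to 0.24 for *ITGAV*, -0.059 to 0.33 for *ITGB3* and -0.27 to 0.62 for *ITGB8*. In FS against PNST they spanned -0.044 to 0.36 for *ITGA5*, -0.11 to 0.094 for *ITGB1*, -0.46 to 0.23 for *ITGB3* and -0.34 to 0.13 for *ITGB5*. In FS against PWT, *ITGB3* spanned -0.42 to 0.0047, and in PNST against PWT, *ITGA8* spanned -0.69 to 0.096 and *ITGB3* -0.44 to 0.20.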
